A study of Mus musculus with 3 samples.

Results

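The replication-dependent histone genes of the mouse lie in 4 named clusters, Hist1 on chromosome 13, Hist2 on chromosome 3, Hist3 on chromosome 11 and Hist4 on chromosome 6. Members were taken as the genes whose symbol starts with Hist1h, Hist2h, Hist3h or Hist4h and that carry at least 1 protein-coding transcript, which gave 67 of 55536 annotated genes and of 21901 protein-coding genes. They comprise 6 linker histone H1 genes, 18 H2A, 18 H2B, 12 H3 and 13 H4 genes. Another 3 histone-named genes have no protein-coding transcript and were left out (Hist3h2bb-ps, Hist1h2aj and Hist1h2al, with at most 2 counts in any library).

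The core histones H2A, H2B, H3 and H4 form the nucleosome around which DNA is wrapped, and H1 binds the linker DNA between nucleosomes. In dividing cells these genes are transcribed mainly in S phase, at histone locus bodies organised by NPAT. Their mRNAs usually lack introns and a poly(A) tail and end instead in a short conserved stem-loop, which is bound by the stem-loop-binding protein (Slbp) and followed by a cut guided by the U7 ribonucleoprotein. Bone-marrow-derived macrophages can divide in response to M-CSF, a division that lipopolysaccharide is known to halt. Replication-independent histones such as H3.3 are made throughout the cell cycle.

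The RNA came from the chromatin fraction of bone-marrow-derived macrophages of strain C57BL/6J, grown from marrow cells in culture. All cells had received 100 ng/ml Lipid A, the part of lipopolysaccharide that Toll-like receptor 4 recognises, for 12 h, a washout of 12 h, and a second dose of 100 ng/ml for 60 min. The 3 libraries were made after ribosomal RNA depletion from 1000, 250 and 500 ng of RNA, in replicates 1, 2 and 3. They form 1 group with no untreated arm, so no effect of Lipid A on any histone gene could be measured, and they share 1 donor entry, so the spread between them may be technical. Age and sex were not recorded.

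The libraries of replicates 1, 2 and 3 held 12602702, 17222239 and 17042691 gene counts. All 10 macrophage markers stood at 10 TPM (length-corrected abundance, scaled to the same total in each library) or more in every library. The 12 fibroblast and stromal markers summed to 5, 50804 and 120 counts in replicates 1, 2 and 3, and Col1a1, a fibrillar collagen, had 0, 16804 and 36 counts, so replicate 2 alone held abundant stromal RNA. Its part in the results was not tested, and values without replicate 2 stand beside those it moves. In bulk RNA, fewer cells transcribing a gene and less RNA per cell cannot be told apart.

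The stem-loop is the sequence feature that sets these mRNAs apart, and its 6 forms among the members are shown first. The search read the GENCODE M21 models for 16 bases after the stop codon that begin with GG. The first 6 bases had to end in T and pair fully with the last 6, around a loop of 4 bases starting with TTT. Capitals mark the paired stem bases.
25 members, among them Hist3h2a, Hist2h2aa2 and Hist1h1c: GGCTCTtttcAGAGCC
7 members, all H4, among them Hist1h4m and Hist4h4: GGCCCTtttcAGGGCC
6 members, among them Hist1h2bb and Hist1h3e: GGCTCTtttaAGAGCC
Hist1h4i and Hist2h4: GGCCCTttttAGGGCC
Hist1h4b and Hist1h4j: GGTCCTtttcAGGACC
Hist2h2ac: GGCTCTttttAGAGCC
A stem-loop was found in 43 of 67 members, 22 to 59 bases after the stop codon. Among the other 24 members, 13 have models that end at the stop codon, where the search had nothing to read, 2 have a 3-prime UTR of at most 2 bases, too short for a match, and 9 have a longer one without a match. Over all 21901 protein-coding genes, the same 16-base pattern was searched anywhere in any protein-coding transcript, not only after the stop codon. It was found in 55 genes (0.251%), and 44 of those 55 were members. The 11 members with a stem that opens GGCCCT or GGTCCT were all H4 genes, and no H4 gene carried a stem that opens GGCTCT.

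The promoters are a further shared feature that the choice of members did not use. RefSeq windows on GRCm38.p6, from 250 bases before to 50 after the start, were matched for 62 of 67 members, and 3 motifs were searched on both strands. TATAAA, the core of the TATA box, was in 35 of 62 member windows (56.5%), against 13.6% of 32851 windows in the table. CCAAT was in 53 of 62 (85.5%), against 37.4%. It was present in every matched H1, H2A, H2B and H3 window but in 3 of 12 H4 windows. The octamer ATGCAAAT, a site type bound by the factor Oct-1 (Pou2f1), was in 7 of 18 H2A and 6 of 16 H2B windows and in no H1, H3 or H4 window, against 1.74% of all windows. A match describes letters in the window and shows no binding. Some H2A and H2B members start close together on opposite strands, as Hist2h2ac and Hist2h2be do, so their windows can share bases. A site in shared bases counts for both members, so these windows are not separate observations. The 250 bases before the start are given for Hist2h2ac, which holds all 3 motifs, and for Hist1h4i, an H4 gene of similar level with TATAAA alone. Those of Hist2h2ac reach into Hist2h2be, which starts at chr3:96221119 on the plus strand. The search asked for no position. The TATAAA of Hist1h4i lies near the middle of the printed bases, far from the start, so it is not shown to be a TATA box. Motif matches are in capitals, on either strand.
Hist2h2ac, minus strand, chr3:96220881-96221130: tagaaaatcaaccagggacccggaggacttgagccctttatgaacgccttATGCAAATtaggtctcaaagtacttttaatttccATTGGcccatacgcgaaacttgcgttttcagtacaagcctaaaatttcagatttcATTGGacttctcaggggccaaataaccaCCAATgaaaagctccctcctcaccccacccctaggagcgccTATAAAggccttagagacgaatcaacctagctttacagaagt
Hist1h4i, minus strand, chr13:22041363-22041612: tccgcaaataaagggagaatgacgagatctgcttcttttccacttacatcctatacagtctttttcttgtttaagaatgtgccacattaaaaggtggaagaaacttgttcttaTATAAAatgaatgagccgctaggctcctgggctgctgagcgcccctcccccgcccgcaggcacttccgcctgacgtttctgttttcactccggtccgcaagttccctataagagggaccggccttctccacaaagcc

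Many members repeat a protein. The 67 members encode 31 proteins, of which 8 are shared by 44 members, and the other 23 members each encode a protein of their own. All 13 H4 members encode 1 protein of 103 residues, and 66 of the 312 positions of their coding sequence vary between members. Coding identity between H4 members ran from 85.3 to 100%. The first 60 coding bases of 4 H4 members are shown, with capitals at the 19 positions that vary among the 13.
Hist1h4m, identical in Hist1h4n: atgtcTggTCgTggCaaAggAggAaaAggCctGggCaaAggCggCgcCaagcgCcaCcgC
Hist1h4d: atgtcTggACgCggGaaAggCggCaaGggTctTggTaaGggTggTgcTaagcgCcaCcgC
Hist2h4: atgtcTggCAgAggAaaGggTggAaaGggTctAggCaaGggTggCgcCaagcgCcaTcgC
Hist4h4: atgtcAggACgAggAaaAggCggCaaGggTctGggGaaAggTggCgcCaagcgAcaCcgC
The 60 bases shown for Hist1h4m are also those of Hist1h4i, which is 96.8% identical to Hist1h4n over the coding sequence. Hist1h4m and Hist1h4n have the same coding sequence throughout. Among H2A genes, 9 members of Hist1 share a protein, and 7 H3 members do. The 528 bases of the Hist2h2aa2 model are all contained in the 586-base model of Hist2h2aa1, so no read within them can tell the copies apart.

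The histone members were lowly represented in chromatin RNA. They held 605, 699 and 484 expected counts in replicates 1, 2 and 3, which is 48.0, 40.6 and 28.4 CPM (counts scaled to library size) and a mean of 39.0 ± 9.90 CPM (SD, n = 3). Their TPM summed to 66.3, 98.1 and 72.5, a mean of 79.0 ± 16.9 (SD, n = 3). Replicate 1 was the highest by CPM and replicate 2 the highest by TPM. The median TPM of the 67 genes was 0.37, 0.67 and 0.37, beside 0.26, 0.96 and 0.30 over protein-coding genes in the same libraries. Of the members, 10 stood at 1 TPM or more in all 3 libraries (14.9%), against 39.1% of protein-coding genes, and no member reached 10 TPM in all 3, against 16.8%. At most 3 counts in each library, here called undetected, were seen for 24 members (35.8%), against 37.0% of protein-coding genes. Counts were concentrated in few genes, with 50.9% of the 1788 member counts in 5 genes (Hist3h2a, Hist2h2aa2, Hist1h1c, Hist1h2bc and Hist1h4i) and 67.0% in 10.

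**Figure D1:**
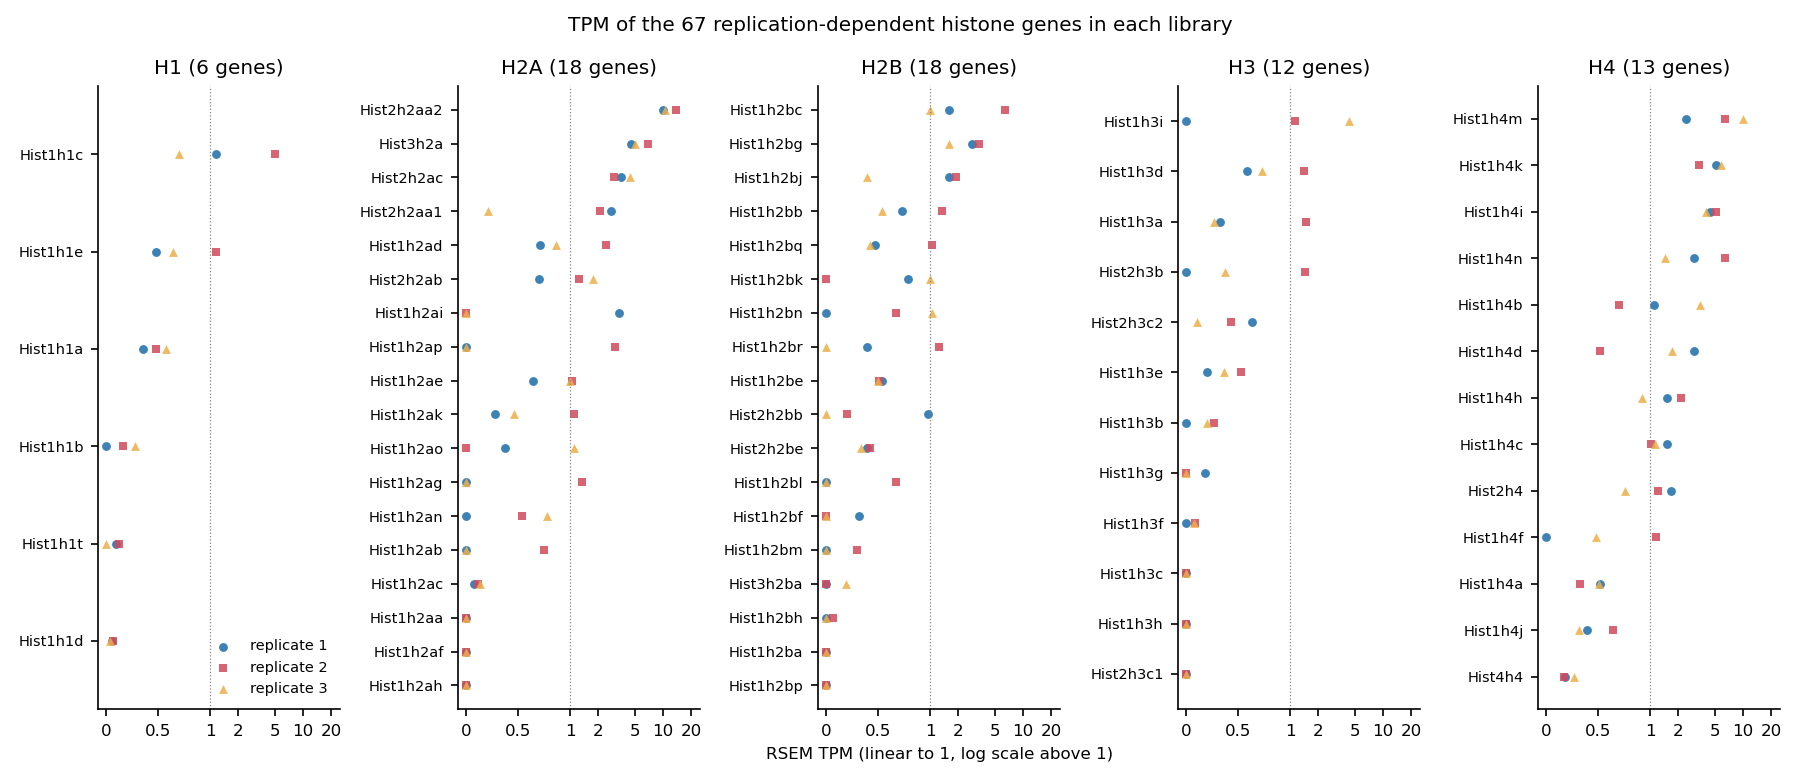
TPM of each of the 67 histone genes in the 3 libraries, in 1 panel per histone family, with genes ordered by mean TPM and a dotted line at 1 TPM. Points are single libraries and the axis is linear to 1 TPM and logarithmic above it. Hist2h2aa2 was the highest gene, at 9.87 to 13.66 TPM, and most genes lay below 1 TPM.

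Among the linker histone genes, 4 of 6 were detected, and the family summed to 3.60, 7.05 and 2.20 CPM in replicates 1, 2 and 3. Hist1h1c (chr13:23738808-23740367) was the highest, at 1.17, 4.95 and 0.70 TPM from 24, 85 and 13 counts. Replicate 2 stood well above the other libraries, and the mean of 2.27 ± 2.33 TPM (SD, n = 3) became 0.94 without it. Hist1h1d was the lowest detected, at 0.05, 0.06 and 0.03 TPM from 5, 6 and 3 counts on a model of 7425 bases. The other detected linker genes lay between 0.35 and 1.15 TPM. Hist1h1b (0, 1 and 2 counts) and Hist1h1t, the testis linker histone (1, 1 and 0 counts), were undetected.

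H2A genes held the most counts of any family, 20.0, 16.2 and 13.0 CPM, with 12 of 18 detected. Hist2h2aa2 (chr3:96239749-96240276, minus strand, single exon) had 9.87, 13.66 and 10.34 TPM from 54, 48 and 41 counts. Its 3 libraries lay within a narrow range, with a mean of 11.3 ± 2.07 TPM (SD, n = 3), but its division from Hist2h2aa1 was uncertain, as described with the near copies. Hist3h2a (chr11:58954685-58956830) had the most counts of any member, 131, 173 and 136, which is 24.6% of all member counts and 4.52, 6.93 and 5.03 TPM. It is an H2A gene outside the large clusters, and the whole of its 2146-base model lies inside Trim17, a TRIM family gene on the same strand that had 59, 75 and 53 counts itself. Hist2h2ac had 3.52, 3.00 and 4.38 TPM from 19, 10 and 17 counts. Hist1h2ac was the lowest detected, at 0.07, 0.11 and 0.13 TPM. The undetected genes were Hist1h2ak, Hist1h2an and Hist1h2ab, with at most 2 counts in any library, and Hist1h2aa, Hist1h2af and Hist1h2ah, with none. Hist1h2aa is a testis H2A gene.

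H2B genes summed to 7.69, 8.18 and 3.68 CPM, with 10 of 18 detected. Hist1h2bc (chr13:23684199-23692908) was the highest, at 1.59, 6.30 and 1.01 TPM from 23, 74 and 13 counts. As for Hist1h1c, replicate 2 was far above the others, and the mean of 2.97 ± 2.90 TPM (SD, n = 3) was 1.30 without it. Hist1h2bg, which encodes the same protein, had 2.84, 3.36 and 1.61 TPM from 19, 16 and 8 counts, with fewer counts in replicate 2 than in replicate 1. Hist2h2be, described in mouse olfactory neurons as a variant expressed outside S phase, was the lowest detected at 0.39, 0.42 and 0.33 TPM from 14, 13 and 11 counts. Undetected were Hist1h2bn, Hist1h2bl, Hist1h2bf, Hist1h2bm, Hist3h2ba and Hist1h2bh, with at most 2 counts in any library, and Hist1h2ba, the testis H2B gene, and Hist1h2bp, with none.

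H3 genes held the fewest counts, 1.75, 2.36 and 1.72 CPM, and 6 of 12 were detected. Hist1h3i was the highest by mean TPM, at 0.00, 1.13 and 4.32 TPM, but these values rest on 0, 2 and 10 counts. The lowest detected was Hist1h3e, with 0.20, 0.53 and 0.36 TPM from 2, 4 and 3 counts. The undetected genes were Hist1h3b, Hist1h3g and Hist1h3f, with at most 1 count in any library, and Hist1h3c, Hist1h3h and Hist2h3c1, with none. No stretch of 31 bases in the Hist2h3c1 model is unique to it, so its reads could have been assigned to another gene. No H3 member reached 1 TPM in all 3 libraries.

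H4 genes were the most evenly represented, with 11 of 13 detected, 5 at 1 TPM or more in all 3 libraries, and 15.0, 6.79 and 7.80 CPM. Hist1h4m (chr13:21811746-21812147) had the highest mean, at 2.41, 6.44 and 9.99 TPM from 9, 12 and 23 counts. Hist1h4i (chr13:22040636-22041362, minus strand) had 4.43, 5.05 and 3.95 TPM from 37, 31 and 27 counts. Its mean of 4.48 ± 0.55 TPM (SD, n = 3) was among the steadiest by TPM, but it had 2.95, 1.79 and 1.58 CPM. Hist1h4k had 5.07, 3.32 and 5.79 TPM from only 12, 3 and 7 counts on the shortest model of the set, and Hist1h4n had 2.99, 6.33 and 1.45 TPM from 12, 14 and 4 counts. Hist4h4, the single gene of its cluster, was the lowest detected at 0.18, 0.17 and 0.27 TPM. Hist1h4f and Hist1h4a were undetected, with at most 3 counts in any library.

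The clusters differed in how many of their genes were detected, beside 13791 of 21901 protein-coding genes. Hist1 falls into 2 stretches of chromosome 13. In chr13:21715763-22043676, 14 of 23 members were detected, with 104, 103 and 95 counts in all. In chr13:23531050-23934851, 18 of 31 were detected, with 208, 304 and 149 counts. Hist2 (chr3:96219865-96270132) had 9 of 10 members detected with 155, 113 and 93 counts, and Hist3 (chr11:58948920-58956830) had 1 of 2. Among the detected Hist2 genes, Hist2h2aa1, Hist2h2aa2, Hist2h3b and Hist2h2bb have no unique stretch of 31 bases. All of these are overlapped by antisense genes with counts. Hist2h3b (0, 4.30 and 1.29 expected counts) and Hist2h2bb (3.32, 0.33 and 0) only just passed the floor, so the Hist2 number is uncertain. Detected and undetected genes were interspersed along both Hist1 stretches. Of the other protein-coding genes between them, 3 of 9 were detected. Hfe, a regulator of iron uptake, had 1.59, 2.54 and 1.37 TPM, and the transporter genes Slc17a1, Slc17a2, Slc17a3 and Slc17a4 had no count.

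**Figure D2:**
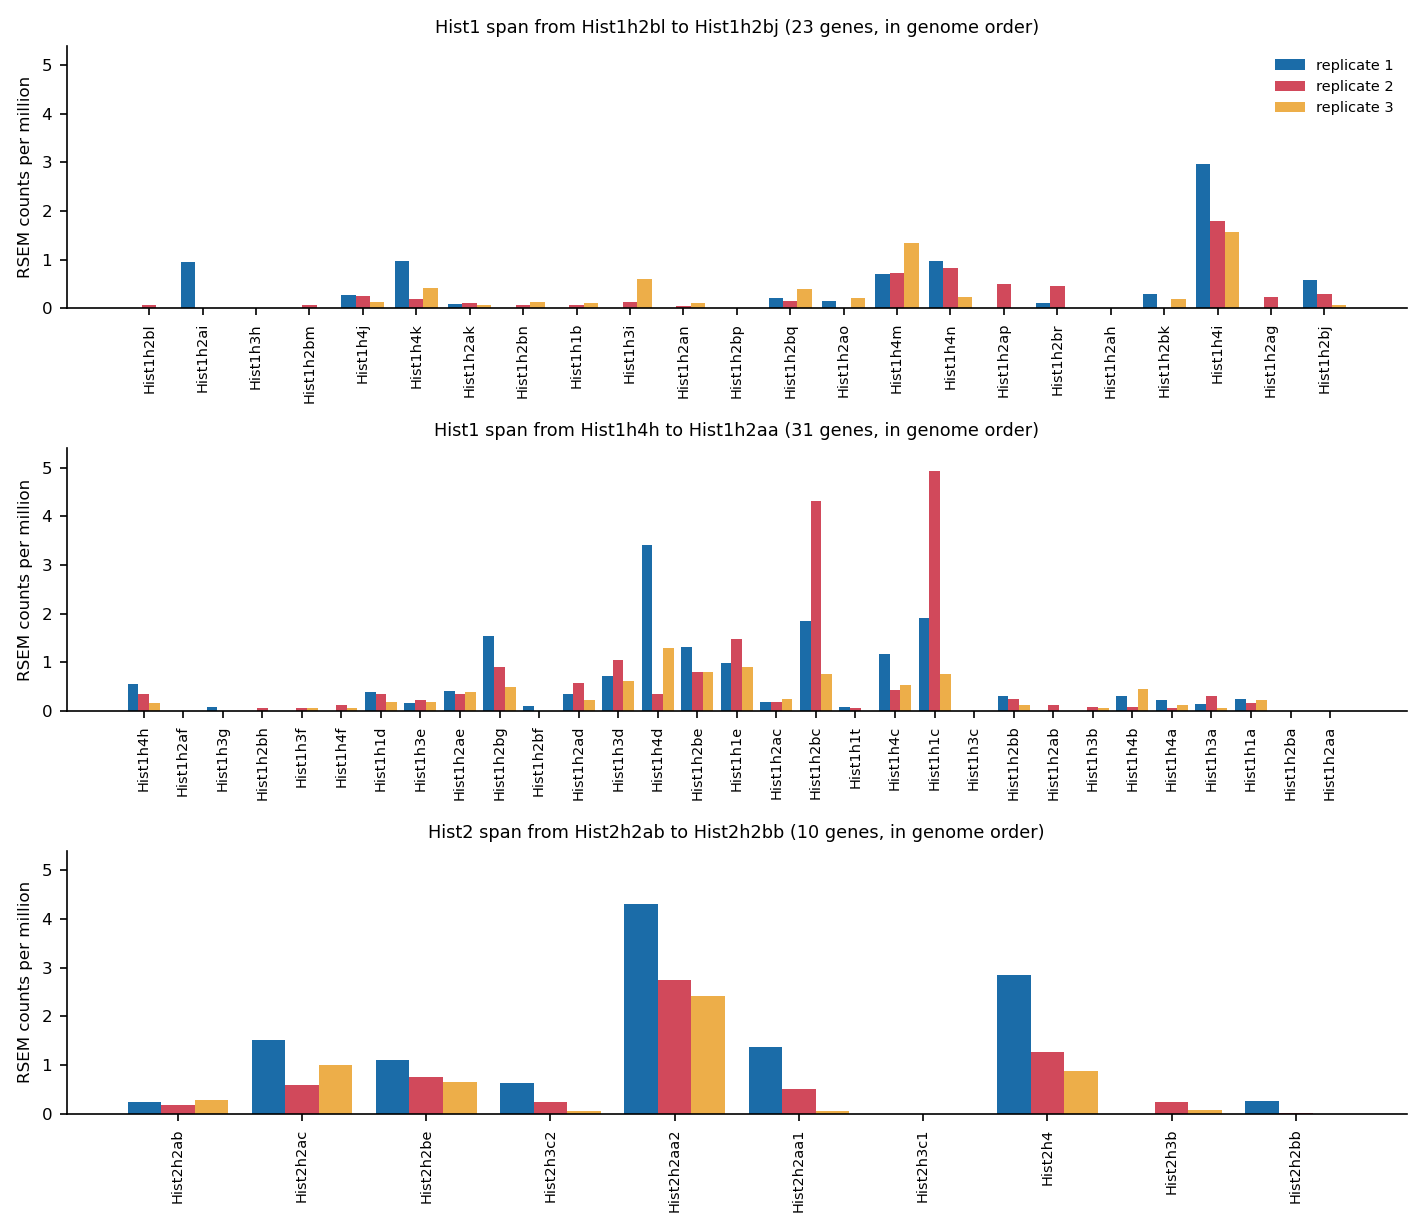
RSEM counts as CPM (bars, 1 per library) for the genes of the Hist1 stretches and of Hist2, in genome order along the horizontal axis. Counts were concentrated in single genes such as Hist2h2aa2, Hist1h4i, Hist1h1c and Hist1h2bc, the last pair highest in replicate 2, with neighbours near 0 between them.

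Model length set how little could be seen of each gene. A count of 3 stands for 1.25, 3.03 and 2.47 TPM on the shortest member model (Hist1h4k, 312 bases) in replicates 1, 2 and 3, and for 0.0284, 0.0315 and 0.0293 TPM on the longest (Hist1h1d). For the 8 members with no count in any library, the 3 counts that a count of 0 allows stand for 0.12 to 1.74 TPM, so levels below that were not detectable at this depth, by counting error alone. This floor does not cover reads assigned to another gene, as could occur for Hist2h3c1, which lies inside Gm20634 on the same strand. Members with models under 500 bases were undetected in 12 of 27 cases, those from 500 to under 1000 bases in 9 of 22 and those of 1000 bases or more in 3 of 18. The files also take different lengths off each model to allow for fragment size. For transcripts of at least 2000 bases, the median was 144, 217 and 220 bases in the kallisto tables, and 148, 269 and 250 bases in the RSEM tables, in replicates 1, 2 and 3. The TPM that a count stands for depends on this length and on a scale set by all genes of the library. Hist2h2aa2 had its highest TPM in replicate 2 but 4.32, 2.76 and 2.42 CPM, with replicate 1 the highest.

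**Figure D3:**
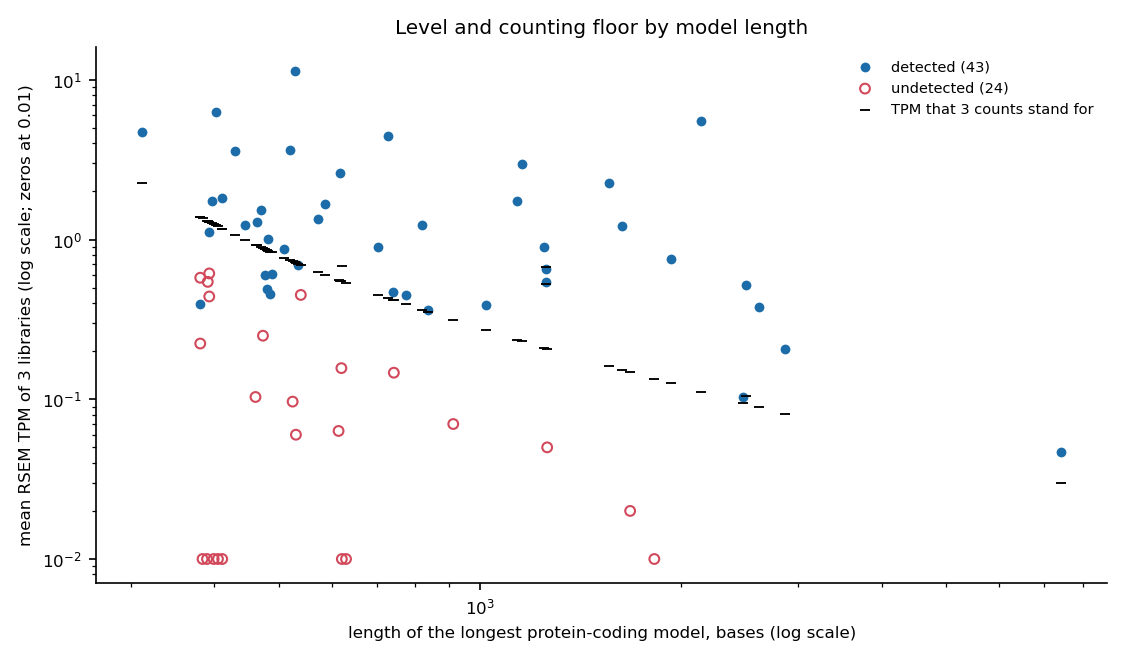
Mean RSEM TPM of 3 libraries against model length, both on log scales, for the 43 detected (filled) and 24 undetected (open) members, with dashes at the TPM that 3 counts stand for. The dashes fall as models lengthen, from 2.25 TPM on the shortest to 0.0298 TPM on the longest.

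Levels of the members agreed less between libraries than those of protein-coding genes at large. The rank correlation of TPM between pairs of libraries was 0.589, 0.665 and 0.642 over the 67 members, against 0.935, 0.967 and 0.940 over protein-coding genes. This is a description across genes that share libraries and differ in depth, with low counts in most members. The 5 genes with the highest coefficient of variation among those of at least 1 TPM on average were Hist1h2ai (12, 0 and 0 counts), Hist1h2ap (0, 9 and 0 counts), Hist1h3i (0, 2 and 10 counts), Hist1h1c and Hist1h2bc. The first 3 rest on counts of 12 or fewer in any library, whereas Hist1h1c and Hist1h2bc had 47, 159 and 26 counts together. Without that pair, the other 65 members held 44.2, 31.4 and 26.9 CPM. By CPM, replicate 2 was the highest library for 18 of 59 members with any count, for 12 of 12 stromal markers and for 9696 of 15804 protein-coding genes. By TPM it was the highest for 33 of 59 members, 12 of 12 stromal markers and 11889 of 15804 protein-coding genes, so whether it led for most members depends on the scale. The part of stromal RNA in the replicate 2 levels of Hist1h1c and Hist1h2bc was not tested.

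Near copies were divided differently by the 2 quantifications that the authors deposited, kallisto, which assigns reads to transcripts from short words, and RSEM, which uses alignments to transcripts. Hist2h2aa2 had 70, 34 and 39 kallisto counts and 54, 48 and 41 RSEM counts, and Hist2h2aa1 had 12, 17 and 0 kallisto counts and 17, 9 and 1 RSEM counts. The pair summed to 82, 51 and 39 kallisto counts and to 72, 56 and 42 RSEM counts. No word of 31 bases was unique to either copy among all annotated transcripts, and the posterior SD that the RSEM tables give for Hist2h2aa2 was 12.87, 7.44 and 5.69 counts. All words of both copies also occur in genes outside the members, so the sum of the pair may leave out reads assigned to those genes. Hist1h4m and Hist1h4n, with 8.33 and 12.5% unique words, summed to 26, 36 and 29 kallisto counts and to 21, 27 and 27 RSEM counts. Hist1h2bq and Hist1h2br, with at most 0.163% unique words, summed to 19, 75 and 65 kallisto counts but to 4, 10 and 7 RSEM counts. Of these kallisto counts, 17, 75 and 62 lay on long transcripts annotated for nonsense-mediated decay and 2, 0 and 3 on the protein-coding ones, to which the share of unique words refers. The level of each copy alone is therefore uncertain.

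The tables diverged most on long models. Over the members, kallisto gave 1023, 1362 and 1121 counts and RSEM 605, 699 and 484, a ratio of 1.96 over the libraries, beside 1.70 over all annotated genes. The ratio was 1.42 for models under 500 bases, 1.37 from 500 to under 1000 bases and 2.34 for 1000 bases or more. Hist1h1d had 101, 131 and 129 kallisto counts against 5, 6 and 3 RSEM counts, and Hist4h4 had 80, 63 and 70 against 7, 6 and 10. Hist1h2bh, undetected in RSEM with 0, 1 and 0 counts, had 7, 30 and 26 kallisto counts. These genes are not near copies in most of their length, with 96.3, 81.3 and 70.8% unique words. Their models run 4884, 2445 and 1214 bases past the stem-loop, where the mature histone mRNA would end. The 22 members whose models run over 100 bases past the stem-loop held 62.3% of RSEM member counts, and their kallisto to RSEM ratio was 2.00. The 21 members that end within 100 bases of it held 22.7%, with a ratio of 1.28. The 24 members without a stem-loop held 15.0% and had the highest ratio, 2.83, from 758 kallisto and 268 RSEM counts. Of these counts, Hist2h2be gave 296 and 38, Hist1h2bq 135 and 12, and Hist1h2br 23 and 9. The ratio was therefore not shared evenly within that class. Hist3h2a, which runs 1643 bases past its stem-loop, had 582 kallisto and 440 RSEM counts, a ratio of 1.32, so the ratio did not follow the stem-loop class throughout. Where along a model the reads lay is not given by these tables.

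The difference between quantifications was tested across all genes with limma, on log2(TPM + 1) of kallisto minus RSEM within each library, for genes that averaged 1 TPM or more over both. Of 19077 genes tested, 55.8% were called at an adjusted p under 0.05, 54.0% higher and 1.81% lower in kallisto, and the median gene was 0.56 higher in kallisto. Only 22 of 67 members passed the level filter, 16 with a mean of 1 TPM or more in both tables, 1 through kallisto alone and 5 through RSEM alone. Of the 22, 1 was called higher and 1 lower in kallisto, and their median difference was -0.22, with 5 positive and 17 negative. Passing through RSEM alone favours a negative difference, and passing through kallisto alone a positive one. The signs and calls of the 22 members may therefore depend in part on the filter. Relative to the median gene of each library, 18 of the 22 members were called lower in kallisto and 0 higher by limma (18 in either direction at an unadjusted p under 0.05), where 31.1% of all genes tested were lower, 33.8% higher and 64.9% called in either direction. The pseudocount of 1 draws differences of low genes towards 0, and its part in these calls was not tested. With a pseudocount of 0.1 the median was -0.32 for the 22 members and 0.68 for all genes. Without the level filter 61 members could be tested, of which 4 were called higher and 2 lower, with a median of -0.05 beside 0.29 over all genes.

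The 2 called members differed in kind. Hist2h2be (chr3:96221119-96223738) had 0.98, 1.32 and 3.03 TPM in kallisto and 0.39, 0.42 and 0.33 TPM in RSEM, from 46, 78 and 172 against 14, 13 and 11 counts, so the tables assign it different reads. Its difference was 0.94 ± 0.24 (SE, n = 3 libraries, limma adjusted p = 0.0222), higher in kallisto in 3 of 3 libraries. Hist1h4m had 1.71, 2.59 and 4.63 TPM in kallisto and 2.41, 6.44 and 9.99 TPM in RSEM, and its difference was -0.78 ± 0.18 (SE, limma adjusted p = 0.0140), lower in 3 of 3 libraries. Its counts were nearly equal, with 8, 13 and 22 in kallisto and 9, 12 and 23 in RSEM. A count thus stood for fewer TPM in kallisto, where the libraries held 19502402, 30678687 and 29638293 gene counts in all, against 12602702, 17222239 and 17042691 in RSEM. The effective length of its 402-base model was 260, 202 and 203 bases in kallisto and 254, 145 and 161 bases in RSEM. Hist2h2be passed the level filter through kallisto alone, with a mean of 1.78 TPM there against 0.38 in RSEM, so the filter itself favours a positive difference. Both calls were lost without replicate 2 (adjusted p = 0.0660 for Hist2h2be and 0.0625 for Hist1h4m) and without replicate 3 (0.0601 and 0.0644), and that of Hist2h2be also relative to the median gene, at 0.41 ± 0.21 and adjusted p = 0.138, and without the level filter, at adjusted p = 0.0659. Hist2h2aa2, the highest member, had a difference of -0.77 ± 0.27 (SE, limma adjusted p = 0.0564) and missed the threshold.

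**Figure D4:**
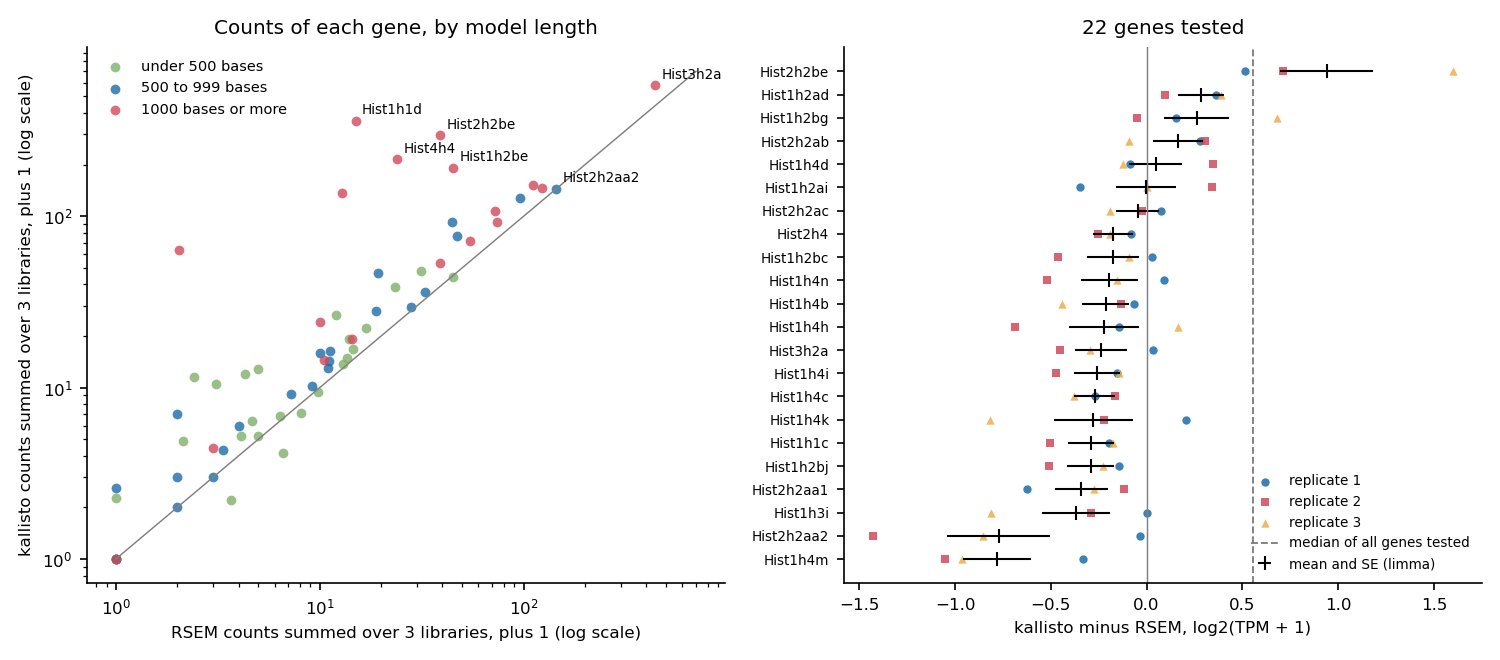
Left, kallisto against RSEM counts of the 67 members summed over 3 libraries, each plus 1, on log axes with the line of equality, coloured by model length. Right, kallisto minus RSEM in log2(TPM + 1) for the 22 members tested, as single libraries with the mean and SE, where the solid line is 0 and the dashed line the median of all genes tested (0.56). Hist1h1d, Hist4h4 and Hist2h2be lie far above the line of equality, and most tested members lie left of the dashed line.

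Overlapping annotation adds a further limit. Another annotated gene overlaps 24 of 67 members, 21 of them on the other strand and 7 on the same strand. For 15 of those 21 the partners are microRNA models alone, none with more than 1 count in a library, and 4 members face a gene of over 3 counts. The strand setting of the counting is not given in the sources used here. The antisense genes Gm20632 over Hist2h2aa2 and Gm20633 over Hist2h2aa1 had 67, 30 and 31 counts and 47, 51 and 29 counts, against 54, 48 and 41 for Hist2h2aa2 and 17, 9 and 1 for Hist2h2aa1. Without the strand, reads of a histone gene and of its antisense partner cannot be told apart. On the same strand, the noncoding gene Gm20634 spans 529 bases of Hist2h2aa1 and all 1825 bases of Hist2h3c1. It had 40, 51 and 53 counts, and the strand would not separate its reads from those of these members.

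Genes that replace or carry histones, or that make or degrade their mRNAs, had higher median TPM than the members in each library. The 11 replication-independent histone genes were all detected, with a median TPM of 0.93, 9.64 and 2.91, and were led by H3f3b with 129.63, 175.72 and 109.55 TPM, H2afy with 60.25, 82.54 and 73.19 TPM and H3f3a with 26.48, 45.71 and 18.89 TPM. H3f3b and H3f3a encode H3.3, and H2afy encodes macroH2A. The single gene H3f3b thus stood above the summed TPM of all 67 members in each library. H1fx was their lowest, at 0.00, 0.87 and 0.00 TPM.

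Factors for histone mRNA synthesis and 3-prime end processing were present. All 15 were detected and 12 stood at 1 TPM or more in all 3 libraries, with Srrt, a partner of the cap-binding complex, at 105.76, 155.07 and 119.62 TPM, Hinfp, an activator of H4 genes, at 25.37, 31.62 and 21.25 TPM, and Slbp at 8.67, 15.07 and 11.26 TPM. Zfp473 was the lowest, at 0.14, 0.14 and 0.23 TPM. Of the histone mRNA decay factors, 6 were found by symbol and all were detected. They were led by the exonuclease Xrn1 at 45.96, 60.28 and 47.40 TPM, the exosome nuclease Exosc10 at 20.31, 25.25 and 26.71 TPM and the helicase Upf1 at 12.82, 21.12 and 17.05 TPM, and Lsm1 was lowest at 0.63, 2.71 and 0.89 TPM. All 16 histone chaperones were detected, with Atrx (109.56, 255.68 and 162.26 TPM) and Daxx (158.98, 115.39 and 115.72 TPM), which deposit H3.3 together, the highest, followed by Nap1l4 (43.73, 62.98 and 43.73 TPM). Asf1b, a chaperone of dividing cells, was the lowest at 0.32, 0.30 and 0.12 TPM.

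Genes of DNA synthesis stood above the members. All 27 S phase genes were detected, with a median of 1.09, 2.89 and 1.20 TPM in replicates 1, 2 and 3, beside 0.26, 0.96 and 0.30 TPM over protein-coding genes. The highest were Tk1 (thymidine kinase) at 25.74, 33.85 and 23.37 TPM, Pcna, the sliding clamp of DNA polymerase, at 18.28, 20.73 and 19.86 TPM and Pola1 at 5.56, 10.56 and 7.93 TPM. The 16 genes of G2 and mitosis had a median of 0.26, 1.68 and 0.66 TPM. Mki67, a marker of cycling cells, stood apart from them at 102.45, 99.28 and 140.68 TPM, ahead of Top2a at 1.73, 7.40 and 2.67 TPM and Cdk1 at 0.19, 7.49 and 0.59 TPM, and Cenpf was lowest at 0.03, 0.33 and 0.22 TPM. By CPM, replicate 2 was the highest library for 22 of 27 S phase and 15 of 16 G2 and mitosis genes, the library with stromal RNA, beside 18 of 59 histone members. By TPM these counts were 25 of 27, 15 of 16 and 33 of 59. The part of stromal cells in these levels was not tested.

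**Figure D5:**
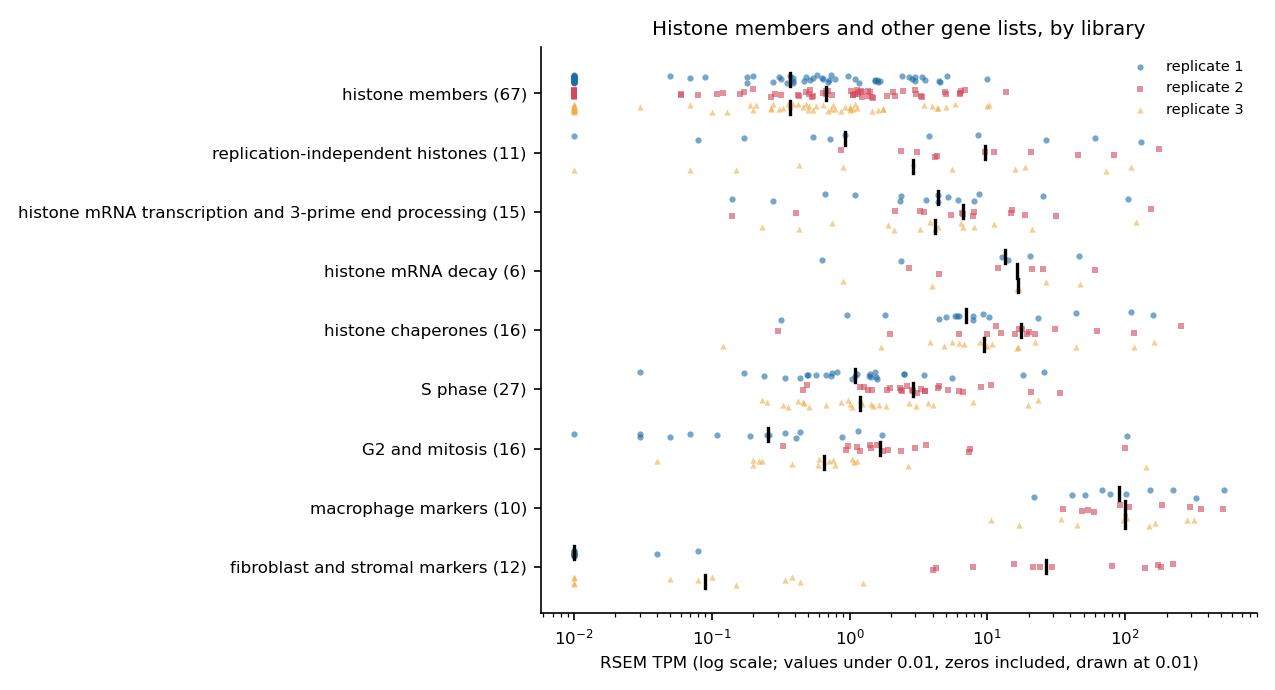
TPM of each gene (points, by library) and the list median in each library (black bars) on a log axis, for the 67 histone members and 8 other gene lists, with values under 0.01 drawn at 0.01. The histone members centre below 1 TPM, well under macrophage markers near 100 TPM, and the stromal markers are high in replicate 2 alone.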

How the data were processed

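Ribosomal-RNA-depleted chromatin RNA of 3 macrophage libraries in 1 group was analysed. The authors deposited expected counts and TPM per gene in RSEM layout, from transcriptome alignments to mm10 with GENCODE M21, per the file notes. They also deposited estimated counts and TPM per transcript in kallisto layout, derived straight from reads and summed per gene here. The sources used here give no aligner, strand setting or tool version. Rows that name no gene (1.94, 0.269 and 0.386% of counts) were left out. Protein-coding genes held 268051, 350470 and 300461 TPM in all, so TPM is relative to abundant noncoding RNA.

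A gene was undetected with at most 3 expected counts in each library, a floor that covers counting error only. The sole test was limma 3.58.1 (R 4.3.3) on kallisto minus RSEM log2(TPM + 1) within libraries, two-sided, with trend and Benjamini-Hochberg adjustment at 0.05 over all genes averaging 1 TPM or more over both tables. Checked on simulated data, it recovered 0, 0 and 71.0% of 200 changed genes at shifts of 1, 2 and 4. With 8000 changed genes among 19077, it recovered 78.55, 93.1 and 98.3% at these shifts. Recovery thus depended on how many genes changed, and a missed call does not show equal values. The libraries may not be independent, so p-values measure only the spread between them. Stem-loops and words of 31 bases came from the longest protein-coding GENCODE M21 transcript of each gene (GRCm38, the mm10 assembly), and promoters from RefSeq on GRCm38.p6, matched through Entrez Gene identifiers. Zcchc6 and Zcchc11 of the decay list were not found by symbol. Named members are the 10 highest by mean TPM, the highest and lowest detected of each family, the highest of each cluster, the undetected, the 5 most variable of at least 1 TPM, and those called. Named genes of other lists are the 3 highest and the lowest. Genes named outside this rule were chosen after their values were seen. The members and lists were chosen with earlier results of these data known. Alternatives were other TPM estimates and scalings, thresholds, pseudocounts and filters, CPM, and leaving out each replicate.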

Additional observations from a re-analysis of the deposited data

How the results depend on the processing

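The number of members at 1 TPM or more in all 3 libraries was 28 with RSEM TPM and 27 with kallisto TPM when both were rescaled to sum to the same total over protein-coding genes, 34 at a threshold of 0.1 TPM and 0 at 10 TPM, and 12 to 15 when 1 replicate was left out. Undetected members numbered 8 at a count of 0, 47 at up to 10 counts, and 26 to 30 without 1 replicate. The median TPM was 0.73 by posterior means, 1.51 and 1.31 after rescaling RSEM and kallisto TPM, and 0.37 to 0.52 without 1 replicate. The summed TPM was 256 and 169 after that rescaling and 69.4 to 85.3 without 1 replicate. Members called between kallisto and RSEM numbered 5 of 22 with a pseudocount of 0.1, where 52.5% of all genes tested were called. They numbered 6 of 61 without the level filter (36.1% of all genes) and 18 of 22 relative to the median gene (64.9%). By CPM 9 of 14 were called (67.2%), and by posterior means 6 of 23 (49.2%). Leaving out replicate 1, 2 or 3 gave 3, 0 and 0 of 22 (50.3, 46.7 and 43.6%). In limma without replicate 2 or 3, 5 and 3 members had an unadjusted p under 0.05. All genes called ranged from 8326 to 9601 without 1 replicate. Neither member called by limma changed direction under the alternatives run for it, and Hist1h4m was too low to be tested by CPM. The mean TPM of 10 of 36 named members with a value moved by over 1 SD with kallisto. No paired analysis was possible because the labels give 1 group, other than pairing both tables within each library, which is the test itself. Depth limits most members, since those 47 never exceed 10 counts, and the cause of these dependences was not tested.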
